A study of Homo sapiens with 9 samples.

Results

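The clustered histone genes were examined across HCT8/5-Fu, HCT8/DDP and HCT8. The members were all genes of the mRNA table whose symbol begins with HIST1H, HIST2H, HIST3H or HIST4H, which gave 71 of 19976 genes. They comprised 6 linker histone H1 genes and the core histone genes, namely 17 for H2A, 18 for H2B, 15 for H3 and 15 for H4. By locus, 55 belonged to HIST1, 12 to HIST2, 3 to HIST3 and 1 to HIST4.

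HCT8/5-Fu and HCT8/DDP are chemoresistant derivatives of HCT8, an established human colorectal adenocarcinoma line. HCT8/5-Fu cells had been exposed for a long time to increasing 5-fluorouracil, an inhibitor of thymidylate synthase and so of DNA synthesis, and were kept in it. HCT8/DDP cells had been exposed in the same way to cisplatin, which crosslinks DNA, and HCT8 cells served as the chemosensitive control. Each line had 3 libraries of total RNA from which rRNA had been removed, and each drug was represented by 1 resistant line. No source used here states that the 3 libraries of a line came from separate cultures, so a p-value compares a difference with a spread between libraries that may be technical only. The 9 libraries held 19753035 to 28535882 counts. All 10 colorectal epithelial markers reached 1 CPM (counts per 1000000 counts of the library) in every library, and 6 of them were higher than in HCT8 in both resistant lines. Of the markers of other cell types, 2 of 5 fibroblast genes (COL1A1 and PDGFRB) reached 1 CPM in every library. The fibroblast genes summed to at least 6.75 CPM in every library, and PDGFRB was higher in HCT8/DDP. No leukocyte or endothelial marker reached 1 CPM in every library.

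Histone genes of these clusters are transcribed mainly in S phase, when new DNA has to be packaged. Core histones H2A, H2B, H3 and H4 form the nucleosome, and linker histone H1 binds the DNA between nucleosomes. Most of their mRNAs lack introns and a poly(A) tail and end in a stem-loop that is bound by SLBP, the stem-loop binding protein. A few members also yield polyadenylated transcripts, which persist in cells that have stopped dividing. Libraries made by rRNA removal keep mRNAs without a poly(A) tail.

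Of the 71 members, 65 had at least 1 count. No count was found in any library for HIST1H2AA, HIST1H2BA, HIST1H3D, HIST1H4F, HIST1H4G and HIST1H2AM, and a further 7 members had between 1 and 30 counts over all 9 libraries. Of the 4 testis histone genes listed, HIST1H2AA and HIST1H2BA were at 0 and HIST3H3 had 17 counts. HIST1H1T, however, had 245 counts, with some in every library. After the filter on low counts, 57 members were tested for each resistant line against HCT8. HIST1H1D, HIST1H2BH, HIST1H3F and HIST1H2AL passed this filter only through HCT8, where they were high, so they had to differ.

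Levels of different genes were compared per length, by FPKM (the count scaled to gene length and to the library total). The highest FPKM averaged over the 9 libraries was that of HIST1H1C, the gene of linker histone H1-2, at 913, followed by HIST1H2AJ at 912 and HIST1H2BK at 825. These were followed by HIST2H2AC at 612.5 FPKM, HIST1H2AH at 566 FPKM, HIST1H3B at 491 FPKM and HIST1H4D at 473 FPKM. HIST1H2BO, HIST1H2BC and HIST1H1E completed the 10 most abundant members at 382, 353 and 349 FPKM. The order rests on the deposited gene lengths. HIST1H4E had 90628 counts over the 9 libraries on 1487 bases, against 32930 on 312 bases for HIST1H4D. HIST1H2AG had 80791 counts on 2250 bases, against 80173 on 387 bases for HIST1H2AJ. The order also depended on the line. HIST1H1B, the gene of linker histone H1-5, averaged 21.1 FPKM in HCT8/5-Fu and 15.99 FPKM in HCT8/DDP, against 864 FPKM in HCT8.

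Together, the clustered histone genes took a smaller share of the counts in both resistant lines. Their summed level was 1964, 6519 and 6343 CPM in HCT8/5-Fu and 6601, 4101 and 5045 CPM in HCT8/DDP, against 6639, 8965 and 8544 CPM in HCT8. All resistant libraries lay below all HCT8 libraries, but by little in the case of HCT8/DDP replicate 1 and HCT8 replicate 1. The log2 ratio of the means was -0.70 for HCT8/5-Fu and -0.62 for HCT8/DDP, and it is given without a test. The ratio for HCT8/5-Fu was -0.32 without its replicate 1. With TMM scaling, which corrects for the make-up of each library, these ratios were -0.57 and -0.50, and the libraries of both lines overlapped those of HCT8. The TMM ratio for HCT8/5-Fu without replicate 1 was -0.17. The separation in CPM also rested on 6 members with log2 fold changes below -4 in both lines, described below. Without them, the sums of the other 65 members overlapped HCT8 in both lines. Their ratios in CPM were -0.53 for HCT8/5-Fu (-0.15 without replicate 1) and -0.44 for HCT8/DDP. In RNA from whole cultures, fewer cells in S phase and less histone mRNA per cell cannot be told apart.

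**Figure D1:**
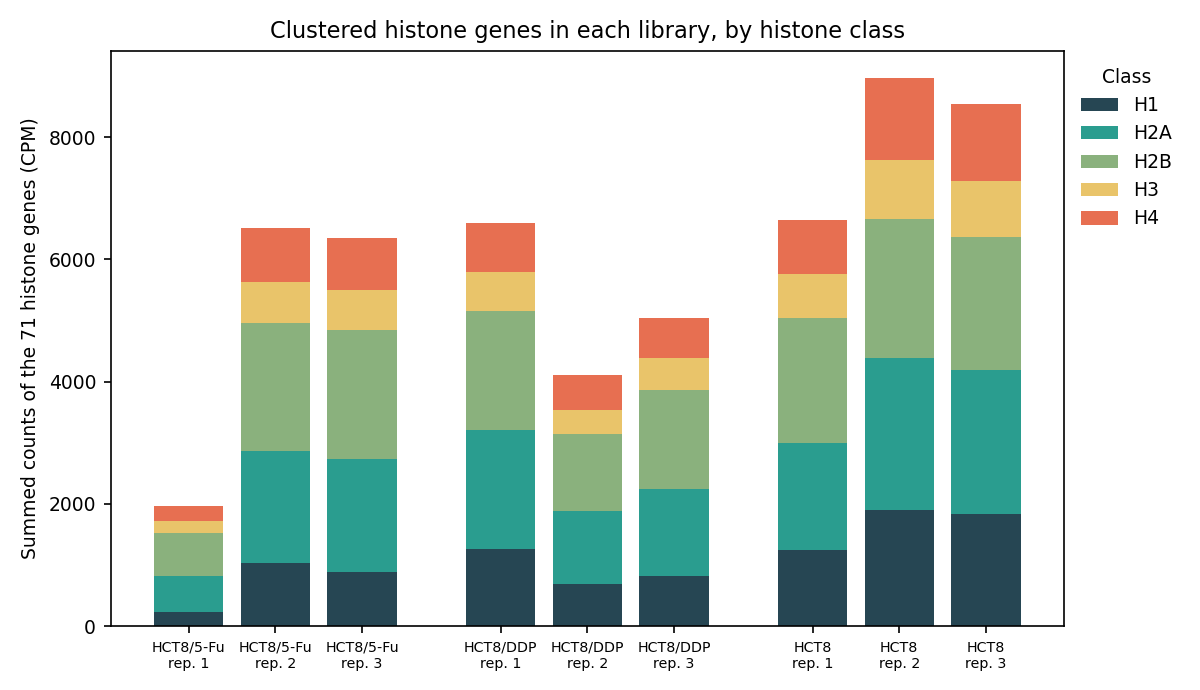
Summed counts of the 71 clustered histone genes in CPM (y axis) in each of the 9 libraries (x axis), stacked by histone class. HCT8/5-Fu replicate 1 has the shortest bar at 1964 CPM, and the 3 HCT8 bars lie between 6639 and 8965 CPM.

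HCT8/5-Fu replicate 1 stood apart from the other libraries. Its histone sum was 3.27-fold below the mean of HCT8/5-Fu replicates 2 and 3. Of the 41 members with at least 10 CPM in the mean of these 2 replicates, 37 were more than 2-fold lower in replicate 1, compared with 1.32% of all 9542 genes at that level. The median fold was 3.56 for the members and 0.94 for all genes. Over all genes kept by the filter, its log2 CPM correlated with replicates 2 and 3 at r of 0.973 and 0.976, against 0.993 between those 2. HCT8 replicate 1 also differed from its fellow replicates, though less, with r of 0.984 and 0.985 against 0.992. It had the lowest histone sum of HCT8, 6639 CPM. Values of HCT8/5-Fu that turn or move strongly with HCT8/5-Fu replicate 1 are given with and without that library.

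The deficit reached every histone class but was uneven between genes. It was smallest for HIST4H4 (1.20-fold) and HIST1H3E (1.24-fold), and largest for HIST1H1B (32.5-fold), which also had the highest value of all genes. The 7 members with known polyadenylated transcripts (HIST1H1C, HIST1H2AC, HIST1H2BC, HIST1H2BD, HIST1H2BK, HIST2H2BE and HIST4H4) had a median of 2.63-fold, whereas the other 34 had a median of 3.70-fold. Proliferation genes were low in the same library. The 26 S phase genes summed to 2313, 4286 and 4247 CPM in HCT8/5-Fu and to 3586, 3194 and 3699 CPM in HCT8/DDP, against 3884, 3574 and 3652 CPM in HCT8. The 16 genes of G2 and mitosis summed to 2060, 4050 and 3960 CPM in HCT8/5-Fu and to 4082, 3402 and 3739 CPM in HCT8/DDP, against 4752, 4865 and 4656 CPM in HCT8. In contrast, the 12 genes of histone mRNA 3′ processing stayed close together at 1158, 1271 and 1234 CPM in HCT8/5-Fu. The part of cell cycle state in the histone levels was not tested.

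**Figure D2:**
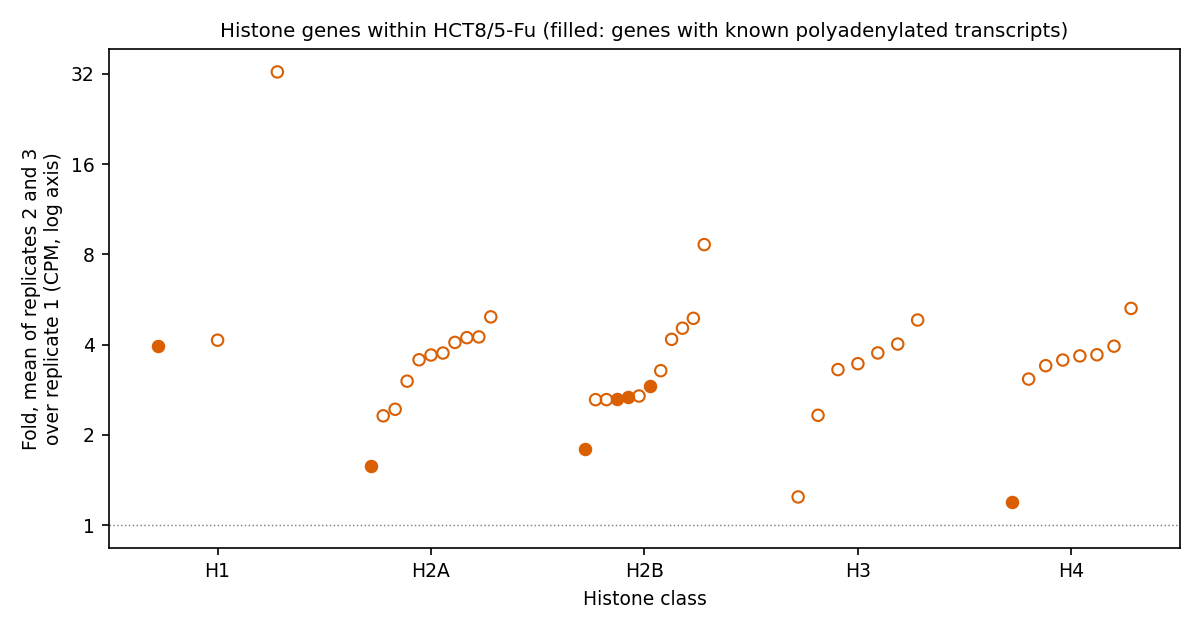
Fold between the mean of HCT8/5-Fu replicates 2 and 3 and HCT8/5-Fu replicate 1 (y axis, log scale) for the 41 members with at least 10 CPM, by histone class (x axis), with members of the polyadenylated list filled. All points lie above 1, from 1.20 for HIST4H4 to 32.5 for HIST1H1B.

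In both resistant lines, 6 members of the HIST1 locus were strongly reduced, with log2 fold changes below -4. They were the linker histone genes HIST1H1D and HIST1H1B, the H2B genes HIST1H2BH and HIST1H2BE, the H3 gene HIST1H3F and the H2A gene HIST1H2AL. In sum they had 3.12, 26.6 and 21.0 CPM in HCT8/5-Fu and 13.9, 7.34 and 16.8 CPM in HCT8/DDP, against 773, 1045 and 1037 CPM in HCT8. They thus made up 0.16 to 0.41% of the histone counts in HCT8/5-Fu libraries and 0.18 to 0.33% in HCT8/DDP libraries, against 11.6 to 12.1% in HCT8 libraries. A log2 fold change below -4 that passed the test was found for 2.12% of all genes tested in HCT8/5-Fu and for 2.12% in HCT8/DDP.

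The promoters of strongly reduced genes are shown beside those of kept (not strongly reduced) genes of the same class, to compare their known elements. They are RefSeq windows of GRCh38.p14 that reach from 250 bases before the annotated start to 50 bases after it, printed in the direction of transcription, and 61 of the 71 members had one. Capitals mark the CCAAT box (CCAAT), the TATA box (TATAAA), the octamer ATTTGCAT that is bound by POU2F1 at H2B genes, and the H1 box AAACACAA of H1 genes, each searched on both strands. Where TTTATAAA appears, the TATA box matches overlap on the 2 strands. The linker histone genes come first, HIST1H1D (chr6:26234938-26235237, minus strand) and HIST1H1B (chr6:27867539-27867838, minus strand) from the reduced group and HIST1H1C (chr6:26056421-26056720, minus strand) from the kept one.
HIST1H1D: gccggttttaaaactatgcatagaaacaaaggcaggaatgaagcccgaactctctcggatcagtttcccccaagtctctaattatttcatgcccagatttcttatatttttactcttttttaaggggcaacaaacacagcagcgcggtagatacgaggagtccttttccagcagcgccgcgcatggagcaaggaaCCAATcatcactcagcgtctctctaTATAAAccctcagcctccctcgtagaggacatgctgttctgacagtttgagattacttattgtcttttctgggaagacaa
HIST1H1B: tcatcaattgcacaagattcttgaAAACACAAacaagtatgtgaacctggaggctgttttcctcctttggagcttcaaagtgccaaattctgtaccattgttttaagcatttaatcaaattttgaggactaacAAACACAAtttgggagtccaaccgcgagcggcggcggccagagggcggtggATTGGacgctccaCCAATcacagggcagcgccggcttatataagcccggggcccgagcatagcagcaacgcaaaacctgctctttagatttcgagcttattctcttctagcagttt
HIST1H1C: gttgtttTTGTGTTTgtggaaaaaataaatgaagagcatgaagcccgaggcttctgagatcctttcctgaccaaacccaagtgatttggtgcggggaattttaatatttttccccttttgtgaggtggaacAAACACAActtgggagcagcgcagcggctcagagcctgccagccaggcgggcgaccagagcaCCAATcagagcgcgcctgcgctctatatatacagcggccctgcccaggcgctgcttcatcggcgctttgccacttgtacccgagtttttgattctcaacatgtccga

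The adjacent pair HIST1H3F (chr6:26250586-26250885, minus strand) and HIST1H2BH (chr6:26251364-26251663, plus strand) and the likewise reduced HIST1H2AL (chr6:27865067-27865366, plus strand) are followed by HIST1H2BF (chr6:26199266-26199565, plus strand), an H2B gene of the same region that kept 47.1, 221 and 206 CPM in HCT8/5-Fu and 156.5, 103 and 150.2 CPM in HCT8/DDP, against 219.8, 268 and 251 CPM in HCT8.
HIST1H3F: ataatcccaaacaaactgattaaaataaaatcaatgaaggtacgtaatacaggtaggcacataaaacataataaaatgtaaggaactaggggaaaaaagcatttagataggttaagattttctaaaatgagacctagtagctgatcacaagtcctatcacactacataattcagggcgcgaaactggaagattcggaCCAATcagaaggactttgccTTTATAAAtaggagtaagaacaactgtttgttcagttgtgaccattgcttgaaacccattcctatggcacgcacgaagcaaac
HIST1H2BH: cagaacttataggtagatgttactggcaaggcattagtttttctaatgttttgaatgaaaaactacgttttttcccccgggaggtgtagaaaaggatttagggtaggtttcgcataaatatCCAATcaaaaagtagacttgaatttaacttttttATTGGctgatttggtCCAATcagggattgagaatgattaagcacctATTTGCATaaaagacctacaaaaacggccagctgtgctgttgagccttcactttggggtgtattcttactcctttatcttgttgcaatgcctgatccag
HIST1H2AL: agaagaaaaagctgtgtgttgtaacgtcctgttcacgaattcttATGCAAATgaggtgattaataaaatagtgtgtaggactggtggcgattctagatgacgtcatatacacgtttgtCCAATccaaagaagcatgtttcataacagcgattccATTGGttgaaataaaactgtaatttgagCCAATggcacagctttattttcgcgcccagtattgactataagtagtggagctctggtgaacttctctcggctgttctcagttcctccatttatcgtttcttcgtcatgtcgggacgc
HIST1H2BF: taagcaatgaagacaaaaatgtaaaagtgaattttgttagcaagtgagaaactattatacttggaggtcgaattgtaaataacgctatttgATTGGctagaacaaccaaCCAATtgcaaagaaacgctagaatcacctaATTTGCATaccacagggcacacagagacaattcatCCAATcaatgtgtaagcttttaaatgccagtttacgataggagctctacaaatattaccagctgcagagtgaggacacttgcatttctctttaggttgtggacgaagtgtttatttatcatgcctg

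Motif matches differed between histone classes and were found in strongly reduced genes and in others alike. The octamer was found in 11 of 16 H2A and 12 of 15 H2B promoters and in none of the H1, H3 and H4 promoters, against 1.77% of all 35116 promoters. HIST1H2BH, HIST1H2BE and HIST1H2AL carried it, as did HIST1H2BF, which was not strongly reduced. HIST1H2BF was nevertheless lower in HCT8/DDP (log2 fold change -0.73 ± 0.15, SE, adjusted p = 0.0013, edgeR). The CCAAT box was found in every H1, H2A, H2B and H3 promoter matched but in 3 of 13 H4 promoters (all promoters, 34.6%), and in all 6 promoters of the reduced genes. The H1 box was found in 4 of 6 H1 promoters (all promoters, 1.55%), including those of HIST1H1B and HIST1H1C. The window of HIST1H1D held aaacacag, which differs from AAACACAA in the last letter only and so was not counted as a match. The TATA box was found in 41 of 61 member promoters and 3 of the 6 reduced ones (all promoters, 11.5%). A match describes the letters only and is neither a bound site nor a cause.

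HIST1H1D, the H1 gene above whose window held no full match to AAACACAA, encodes linker histone H1-3. It had 0 counts in all 3 HCT8/5-Fu and all 3 HCT8/DDP libraries, against 105, 151 and 146.5 CPM in HCT8. Relative to a floor of 3 counts over the libraries of a line, HIST1H1D was at least 3469-fold lower in HCT8/5-Fu libraries and at least 3702-fold lower in HCT8/DDP. No p-value is given for genes that passed the filter only through HCT8.

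HIST1H2BH likewise had 0 counts in all 6 resistant libraries, against 59.8, 72.5 and 72.6 CPM in HCT8. It was at least 1756-fold lower in HCT8/5-Fu libraries and at least 1873-fold lower in HCT8/DDP. HIST1H2BH lies beside HIST1H3F, and the 2 genes are read away from each other.

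HIST1H3F had 2 counts in HCT8/5-Fu replicate 2 and none in the other 5 resistant libraries, against 38.6, 39.7 and 45.7 CPM in HCT8. Its pooled level was 1589-fold lower in HCT8/5-Fu, with a 95% counting interval (exact Clopper-Pearson) of 439.5 to 13130, and at least 1130-fold lower in HCT8/DDP. Such intervals and floors cover counting error only, because PCR copies of a molecule cannot be recognised here.

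HIST1H2AL had 3 counts over the HCT8/5-Fu libraries and none in HCT8/DDP, against 43.5, 65.0 and 58.5 CPM in HCT8. It was 1437-fold lower in HCT8/5-Fu, with a counting interval of 491 to 6969, and at least 1533-fold lower in HCT8/DDP. In the table HIST1H2AL overlaps HIST1H2BN, and how reads shared by both were assigned is not given in the sources used here. HIST1H2BN itself kept its counts, at 39.4, 105 and 108 CPM in HCT8/5-Fu and 95.8, 59.5 and 86.9 CPM in HCT8/DDP, against 84.8, 90.9 and 101 CPM in HCT8.

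HIST1H1B and HIST1H2BE were reduced but kept a measurable level in every library. HIST1H1B had 0.66, 23.8 and 18.7 CPM in HCT8/5-Fu and 11.7, 6.34 and 14.7 CPM in HCT8/DDP, against 461, 654.5 and 649.6 CPM in HCT8. The log2 fold change of HIST1H1B was -5.19 ± 0.90 (SE, adjusted p = 0.0023, edgeR) in HCT8/5-Fu, -4.63 ± 0.23 without replicate 1 of that line, and -5.64 ± 0.28 in HCT8/DDP (adjusted p = 5e-09). HIST1H2BE had 2.47, 2.63 and 2.23 CPM in HCT8/5-Fu and 2.18, 1.003 and 2.13 CPM in HCT8/DDP, against 65.0, 62.2 and 64.6 CPM in HCT8. For HIST1H2BE the log2 fold change was -4.60 ± 0.15 in HCT8/5-Fu and -5.06 ± 0.20 in HCT8/DDP (SE, adjusted p = 4.1e-07 and 1e-09, edgeR). Unlike HIST1H1B, HIST1H2BE was at about the same level in all 3 HCT8/5-Fu libraries.

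**Figure D3:**
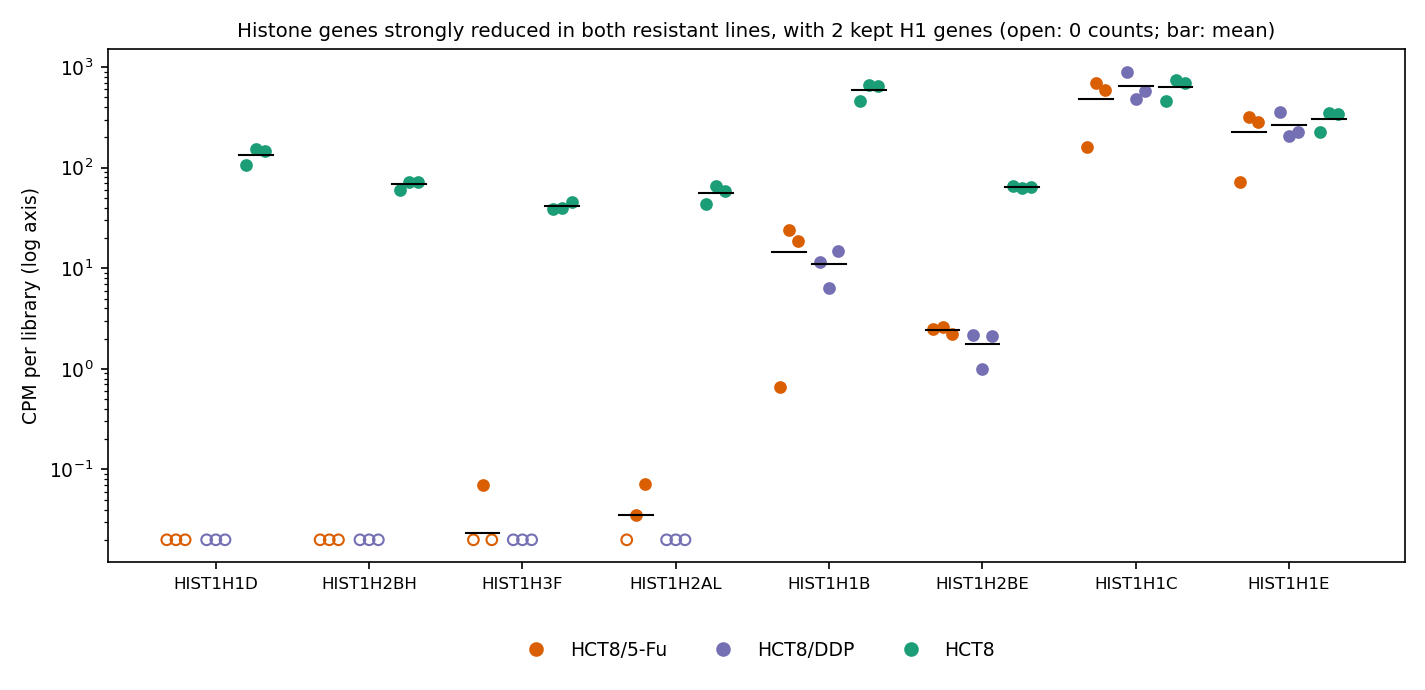
CPM (y axis, log scale) of the 6 members that were strongly reduced in both resistant lines and of 2 linker histone genes that were kept, with 1 point per library, a bar at the mean of each line, and open circles for 0 counts. HIST1H1D and HIST1H2BH have open circles in all 6 resistant libraries, whereas HIST1H1C and HIST1H1E overlap between the lines.

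The 6 genes were not spread evenly along the HIST1 locus on chromosome 6. HIST1H1D, HIST1H3F and HIST1H2BH lay in a run of 7 consecutive histone genes from HIST1H1D to HIST1H2BI that spanned 39.1 kb (positions 26234268 to 26273356 of the deposited table). In this run no gene had more than 2 counts over the 3 libraries of either resistant line. However, the other 4 genes of the run (HIST1H4F, HIST1H4G, HIST1H3G and HIST1H2BI) had at most 1 count in all 9 libraries, so they bear on HCT8 as little as on the resistant lines. The histone genes on either side kept a measurable level. HIST1H3E had 11.1, 16.3 and 11.2 CPM in HCT8/5-Fu and 14.1, 11.7 and 13.9 CPM in HCT8/DDP, against 9.37, 13.3 and 11.6 CPM in HCT8. HIST1H4H, on the other side, had 25.6, 78.5 and 79.0 CPM in HCT8/5-Fu and 65.6, 40.3 and 48.4 CPM in HCT8/DDP, against 88.0, 109.9 and 113 CPM in HCT8. It overlapped HCT8 in neither line. Its log2 fold change was -0.63 ± 0.39 in HCT8/5-Fu and -0.90 ± 0.16 in HCT8/DDP (SE, adjusted p = 0.23 and 0.00051, edgeR).

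HIST1H2AL and HIST1H1B were also direct neighbours, with their facing ends 1102 bases apart, and are read towards each other. HIST1H2BE lay apart from both groups, with HIST1H2BD and HIST1H4D on its sides. Its gene model in the table runs from 26172059 to 26184655 on chromosome 6, far longer than a histone coding sequence.

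The deposited coordinates overlapped the GRCh38.p14 position of the gene for 19203 of 19205 genes compared (99.99%), although the submitters' notes name mm9, a mouse build. Of 32 other genes of the table that start within the HIST1 locus or 400 kb of it, 22 were tested in HCT8/5-Fu and 9 were lower there, and 23 were tested in HCT8/DDP, where 12 were lower and 2 higher (all genes, 18.3% lower in HCT8/5-Fu, and 25.5% lower and 27.0% higher in HCT8/DDP). In HCT8/5-Fu, 12 of the 22 were lower and 1 higher when replicate 1 was left out. TRIM38, a ubiquitin ligase gene beside the cluster named here after its values were seen, was the only one with a log2 fold change below -4 in either line. It had 4.03, 2.14 and 2.45 CPM in HCT8/5-Fu and 3.44, 2.79 and 2.46 CPM in HCT8/DDP, against 60.5, 51.9 and 54.7 CPM in HCT8 (log2 fold change -4.20 ± 0.20 and -4.14 ± 0.14, SE, adjusted p = 2.4e-06 and 3.4e-10, edgeR).

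**Figure D4:**
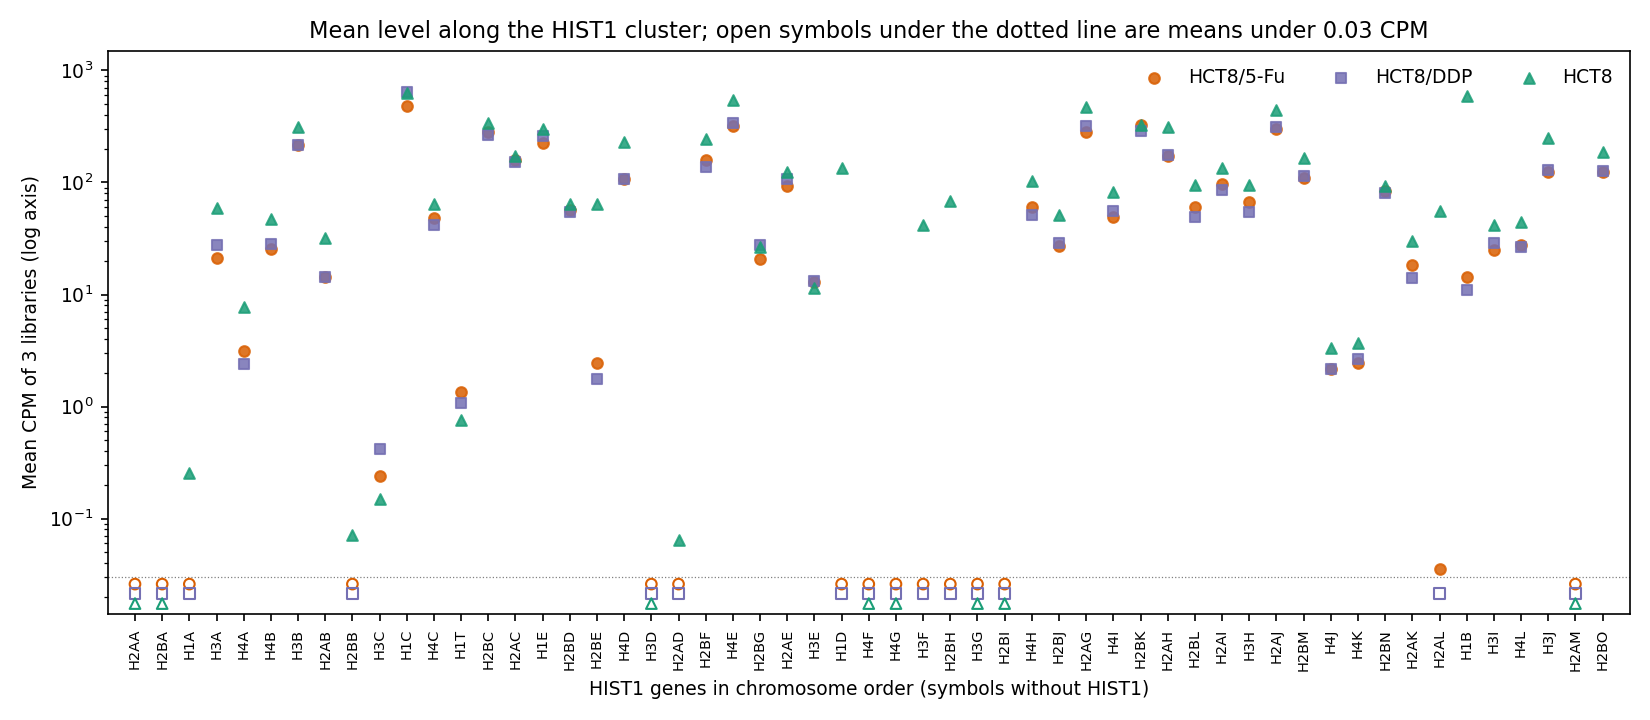
Mean CPM of 3 libraries (y axis, log scale) for the 55 HIST1 genes in chromosome order (x axis), with circles for HCT8/5-Fu, squares for HCT8/DDP and triangles for HCT8, and open symbols for means under 0.03 CPM. The triangles at H1D, H3F, H2BH and H2AL stand far above the symbols of both resistant lines, which lie near the foot of the plot.

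The make-up of the clustered H1 counts differed between the lines, with little HIST1H1B and no HIST1H1D in the resistant ones. HIST1H1C made up 68.3, 66.7 and 65.8% of them in HCT8/5-Fu libraries and 70.7, 69.6 and 70.3% in HCT8/DDP libraries, against 36.7, 39.2 and 38.0% in HCT8. HIST1H1E, the gene of H1-4, made up 30.9, 30.7 and 32.05% in HCT8/5-Fu libraries and 28.3, 29.4 and 27.8% in HCT8/DDP libraries, against 18.0, 18.2 and 18.5% in HCT8. Libraries of each line were close together and did not overlap with HCT8, including HCT8/5-Fu replicate 1. HIST1H1B made up 0.28 to 2.32% in HCT8/5-Fu and 0.91 to 1.80% in HCT8/DDP, against 34.5 to 36.8% in HCT8.

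**Figure D5:**
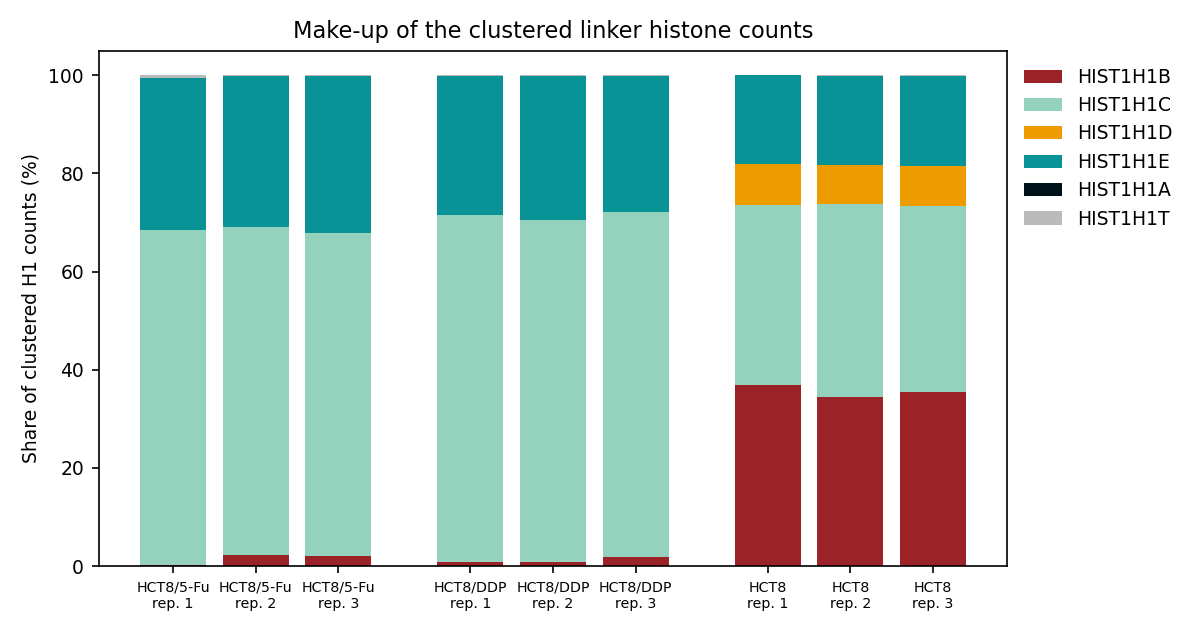
Share of each gene in the counts of the 6 clustered linker histone genes in % (y axis) for the 9 libraries (x axis). HIST1H1C and HIST1H1E fill nearly the whole bar in the 6 resistant libraries, whereas HIST1H1B makes up 34.5 to 36.8% in the 3 HCT8 libraries.

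The 2 kept H1 genes did not pass the test in either line. HIST1H1C had 161, 687 and 585 CPM in HCT8/5-Fu and 889.7, 484 and 573 CPM in HCT8/DDP, against 459.9, 743 and 695 CPM in HCT8. The log2 fold change of HIST1H1C was -0.27 ± 0.48 in HCT8/5-Fu and 0.15 ± 0.22 in HCT8/DDP (SE, adjusted p = 0.68 and 0.60, edgeR). HIST1H1E had log2 fold changes of -0.29 ± 0.48 and -0.10 ± 0.20 (adjusted p = 0.66 and 0.71, edgeR). The values in HCT8/5-Fu turned without its replicate 1, to 0.17 ± 0.21 for HIST1H1C and 0.15 ± 0.19 for HIST1H1E (adjusted p = 0.52 and 0.53).

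Outside the clusters, H1F0, a replication-independent linker histone gene that is known for high expression in differentiated and resting cells, was upregulated. It had 105, 279.8 and 256 CPM in HCT8/5-Fu and 389, 273 and 229 CPM in HCT8/DDP, against 95.9, 114 and 110.3 CPM in HCT8. The log2 fold change was 1.13 ± 0.35 in HCT8/5-Fu (SE, adjusted p = 0.030, edgeR), 1.49 ± 0.11 without replicate 1, and 1.59 ± 0.16 in HCT8/DDP (adjusted p = 5e-06). Of the 12 replication-independent histone genes listed, 10 were tested, and 1 was higher and 1 lower in HCT8/5-Fu, while 3 were higher and 1 lower in HCT8/DDP. Without HCT8/5-Fu replicate 1, 5 were higher and 1 lower in HCT8/5-Fu (all genes, 28.5% higher and 27.7% lower, against 20.4% and 18.3% with all libraries). In HCT8/DDP, 27.0% of all genes were higher and 25.5% lower. H2AFY2, which encodes a macroH2A variant, was the lower one in each, with log2 fold changes of -1.19 ± 0.18 and -1.10 ± 0.12 (adjusted p = 0.00099 and 9e-06, edgeR).

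In HCT8/5-Fu against HCT8, 8 of 57 members were downregulated and none upregulated at an adjusted p under 0.05. HIST1H1D, HIST1H2BH, HIST1H3F and HIST1H2AL, which passed the filter only through HCT8, are among the 8. Over all 13228 genes tested, 38.7% passed, with 18.3% lower and 20.4% higher, so the share of members called was below that of the table. Of the 57 log2 fold changes, 48 were negative, and the median was -0.47 beside -0.004 over all genes. The libraries of HCT8/5-Fu and HCT8 did not overlap for 28 members, whereas 51.5% of all genes tested did not overlap. The count of calls rests on replicate 1. Without it, 19 members passed, 12 of them lower and 7 higher (all genes, 56.1%, with 27.7% lower and 28.5% higher), and the median was -0.06.

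Beyond the 6 strongly reduced genes, HIST3H2BB and HIST1H3A were downregulated in HCT8/5-Fu. HIST3H2BB, an H2B gene of the HIST3 locus on chromosome 1, had 4.43, 8.16 and 7.70 CPM in HCT8/5-Fu, against 17.1, 14.6 and 16.1 CPM in HCT8 (log2 fold change -1.10 ± 0.26, SE, adjusted p = 0.010, edgeR). HIST1H3A had 7.10, 27.9 and 29.1 CPM in HCT8/5-Fu, against 54.6, 60.2 and 64.1 CPM in HCT8 (log2 fold change -1.33 ± 0.45, SE, adjusted p = 0.042, edgeR). HCT8/5-Fu and HCT8 libraries did not overlap for either gene. Without replicate 1 of HCT8/5-Fu, the log2 fold changes were -0.84 ± 0.14 for HIST3H2BB and -0.90 ± 0.12 for HIST1H3A. The call of HIST1H3A was lost with DESeq2 (adjusted p = 0.078) and without any 1 of the HCT8 replicates (adjusted p = 0.093 to 0.11).

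Without HCT8/5-Fu replicate 1, HIST1H2AB, HIST1H4A, HIST1H4D and HIST1H2BJ also passed as lower. The 7 members that then passed as higher were HIST2H3C, HIST2H3A, HIST2H2AA3, HIST2H2AA4 and HIST2H2BE of the HIST2 locus, and HIST1H2BK and HIST1H2BN of HIST1. HIST2H2AA3 and HIST2H2AA4, and likewise HIST2H3A and HIST2H3C, are near-identical copies, so how reads were split within these pairs is uncertain. HIST1H2BK, the most abundant H2B gene per length, had 158, 426 and 403 CPM in HCT8/5-Fu, against 326, 324 and 322 CPM in HCT8. This gave a log2 fold change of 0.16 ± 0.35 with all libraries and 0.52 ± 0.09 without replicate 1 (SE, adjusted p = 0.74 and 0.0013, edgeR).

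In HCT8/DDP against HCT8, 27 of 57 members were downregulated and 1 was upregulated. HIST1H1D, HIST1H2BH, HIST1H3F and HIST1H2AL, which passed the filter only through HCT8 and so had to differ, are among the 27. Over all 13373 genes tested, 52.5% passed, with 25.5% lower and 27.0% higher. The median log2 fold change of the members was -0.44, beside -0.014 over all genes, and 48 of 57 were negative. The libraries of HCT8/DDP and HCT8 did not overlap for 29 members, whereas 61.2% of all genes tested did not overlap. When all 9 libraries entered 1 fit, in which the spread of HCT8/5-Fu is shared, the count in HCT8/DDP was 8 lower and none higher.

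Apart from the 6 strongly reduced genes, the falls were modest, with log2 fold changes between -0.42 and -1.57 in 21 members. HIST1H4A, an H4 gene of low level that is named here after its values were seen, had the largest of these. It had 2.999, 1.504 and 2.65 CPM in HCT8/DDP, against 7.49, 8.44 and 7.04 CPM in HCT8 (log2 fold change -1.57 ± 0.27, SE, adjusted p = 0.00035, edgeR). HIST1H4A had 1.26, 4.03 and 4.15 CPM in HCT8/5-Fu, with a log2 fold change of -1.13 ± 0.42 and an adjusted p of 0.059 by edgeR.

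HIST1H2AB, an H2A gene, had 20.1, 10.8 and 12.2 CPM in HCT8/DDP, against 30.8, 32.8 and 31.6 CPM in HCT8 (log2 fold change -1.03 ± 0.19, SE, adjusted p = 0.00061, edgeR). HIST1H2AK, which in the table overlaps HIST1H2BN on the opposite strand, had 16.6, 11.6 and 14.2 CPM in HCT8/DDP, against 30.1, 31.6 and 28.9 CPM in HCT8 (log2 fold change -0.98 ± 0.14, SE, adjusted p = 8.9e-05, edgeR). Neither gene overlapped between HCT8/DDP and HCT8.

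HIST1H4D, the most abundant H4 gene per length, had 125, 95.8 and 102 CPM in HCT8/DDP, against 182, 245 and 256 CPM in HCT8 (log2 fold change -0.97 ± 0.15, SE, adjusted p = 0.00012, edgeR). HIST1H3A and HIST3H2BB, which were also lower in HCT8/5-Fu, had log2 fold changes of -0.99 ± 0.17 and -0.73 ± 0.16 in HCT8/DDP (adjusted p = 0.00037 and 0.0023, edgeR). Both comparisons share the 3 HCT8 libraries.

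Among the most abundant members, HIST1H2AH had 220.2, 139.9 and 168 CPM in HCT8/DDP, against 238, 363 and 329 CPM in HCT8 (log2 fold change -0.70 ± 0.18, SE, adjusted p = 0.0053, edgeR). HIST1H4D, given above, moved more, whereas the other members of this group moved less. HIST1H2BO also passed, at -0.42 ± 0.14 (adjusted p = 0.021). HIST1H2AJ and HIST1H3B did not pass, at -0.40 ± 0.18 and -0.44 ± 0.20 (adjusted p = 0.086 and 0.075). HIST1H2BC, HIST1H2BK and HIST2H2AC had values of -0.24 ± 0.14, -0.04 ± 0.14 and -0.15 ± 0.18 (adjusted p = 0.16, 0.83 and 0.53), and these 3 are members of high abundance.

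By class, 8 of 13 H4 genes, 4 of 10 H3 genes, 7 of 15 H2B genes, 6 of 14 H2A genes and 2 of 5 H1 genes tested were lower in HCT8/DDP, against 25.5% of all genes. The H3, H2B, H2A and H1 counts include HIST1H3F, HIST1H2BH, HIST1H2AL and HIST1H1D, in that order, which passed the filter only through HCT8. With all 9 libraries in 1 fit, the class counts were 1 for H4, 1 for H3, 3 for H2B, 1 for H2A and 2 for H1. H1, the class farthest below HCT8 in the mean, summed to 1259, 695 and 815 CPM in HCT8/DDP, against 1252, 1896 and 1831 CPM in HCT8, so that 1 library of each line overlapped. HIST1H1B and HIST1H1D carried this fall, with means of 10.9 and 0.0 CPM in HCT8/DDP, against 588 and 134 CPM in HCT8. The median log2 fold change of the H1 genes tested was -0.10. H2B, the class least below HCT8 in the mean, summed to 1947, 1273 and 1623 CPM in HCT8/DDP, against 2043, 2283 and 2169 CPM in HCT8.

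By locus, 25 of 43 HIST1 genes and both HIST3 genes tested were lower in HCT8/DDP, with a median log2 fold change of -0.55 for HIST1. The 25 include HIST1H1D, HIST1H2BH, HIST1H3F and HIST1H2AL, which passed the filter only through HCT8. With all 9 libraries in 1 fit, 7 HIST1 genes and 1 HIST3 gene were lower. None of the 11 HIST2 genes tested was lower, and their median was -0.05. In HCT8/5-Fu the medians were -0.52 for HIST1 and -0.17 for HIST2, and without replicate 1 they were -0.14 and 0.19, so that the direction of HIST2 turned. The summed HIST2 counts were 324, 844 and 881 CPM in HCT8/5-Fu and 1008, 645 and 726 CPM in HCT8/DDP, against 827, 925 and 888 CPM in HCT8, so that the lines overlapped. The difference between the loci was not tested.

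The upregulated member was HIST2H2BE, an H2B gene with known polyadenylated transcripts that is named here because it was the only one. It had 243, 157.5 and 167.5 CPM in HCT8/DDP, against 164, 169 and 147 CPM in HCT8, so the libraries overlapped. Its log2 fold change of 0.36 ± 0.14 was close to the threshold (adjusted p = 0.048, edgeR) and did not pass with library totals (0.24) or without HCT8/DDP replicate 1 (0.15). Nor did it pass with all 9 libraries in 1 fit, with limma, or without HCT8 replicate 3 or HCT8/DDP replicate 3. Of the 7 members with polyadenylated transcripts, none was lower in either resistant line. Over all genes tested, 18.3% were lower in HCT8/5-Fu and 25.5% in HCT8/DDP, so few of 7 genes would be lower at that share. They made up 34.8, 29.4 and 28.8% of the histone counts in HCT8/5-Fu libraries and 31.3, 30.9 and 30.4% in HCT8/DDP libraries, against 21.7, 21.3 and 21.1% in HCT8. This share exceeded that of HCT8 in all 6 resistant libraries, and the counts of the other 64 members were lower in sum, at 1281, 4599 and 4518 CPM in HCT8/5-Fu and 4537, 2832 and 3511 CPM in HCT8/DDP, against 5196, 7058 and 6739 CPM in HCT8. The other 64 include the 6 strongly reduced genes, which made up 11.6 to 12.1% of the histone counts in HCT8. Their fall by itself lowers this sum and raises the share of the polyadenylated list.

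Between the resistant lines, HCT8/DDP against HCT8/5-Fu, no member of the 53 tested passed in edgeR or DESeq2, and none had an unadjusted p under 0.05 in edgeR. Of all genes tested, 2.27% passed, with 0.753% lower and 1.51% higher. The log2 fold changes of the members lay between -0.46 and 0.41. Without HCT8/5-Fu replicate 1, 22 members were lower in HCT8/DDP and none higher, while 29.9% of all genes passed and 15.9% were lower. HIST1H2AK then had a log2 fold change of -0.85 (adjusted p = 0.0013, edgeR) and HIST1H1B of -1.03 (adjusted p = 0.0078, edgeR). The result between the resistant lines therefore turned on that library.

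Genes that act on histone mRNA passed the test in both directions. Of the 12 genes for 3′ processing of histone mRNA, 1 was lower and none higher in HCT8/5-Fu, and 4 were lower and 1 higher in HCT8/DDP. Without HCT8/5-Fu replicate 1, 4 were higher and 2 lower in HCT8/5-Fu, where 56.1% of all genes then passed, against 38.7% with all libraries and 52.5% in HCT8/DDP. CASP8AP2 (FLASH), which recruits the cleavage machinery, was lower in both, at 88.0, 73.3 and 77.9 CPM in HCT8/5-Fu and 109, 94.97 and 92.2 CPM in HCT8/DDP, against 136, 142 and 134 CPM in HCT8 (log2 fold change -0.68 ± 0.10 and -0.36 ± 0.09, SE, adjusted p = 0.0011 and 0.0063, edgeR). LSM11, a subunit of the U7 snRNP, was higher in HCT8/DDP at 0.60 ± 0.15 (adjusted p = 0.0038). The histone genes and this list were not tested for a relation.

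Of 10 genes for histone gene transcription, 3 were lower in HCT8/5-Fu and none higher, and 2 were lower and 2 higher in HCT8/DDP. When replicate 1 of HCT8/5-Fu was left out, 3 were lower and 1 higher in that line. For comparison with these counts and those of decay and chaperone genes below, 18.3% of all genes were lower and 20.4% higher in HCT8/5-Fu. Without its replicate 1 these shares were 27.7% and 28.5%, and in HCT8/DDP they were 25.5% and 27.0%. NPAT, the coactivator of clustered histone genes, had log2 fold changes of -0.36 ± 0.11 in HCT8/5-Fu and -0.28 ± 0.09 in HCT8/DDP (adjusted p = 0.027 and 0.020, edgeR). POU2F1, the octamer-binding factor, had -0.50 ± 0.12 and -0.38 ± 0.09 (adjusted p = 0.012 and 0.0030), and E2F1 was higher in HCT8/DDP at 0.67 ± 0.12 (adjusted p = 0.00040). Of 6 tested genes of histone mRNA decay, EXOSC10 and UPF1 were higher and XRN1 and DCP2 lower in both lines. Of 21 tested histone chaperone genes, 1 was higher and 1 lower in HCT8/5-Fu, and 6 were higher and 3 lower in HCT8/DDP, with ASF1B, a carrier of new H3 and H4, at 0.50 ± 0.11 (adjusted p = 0.0017). Of the 22 chaperone genes tested without HCT8/5-Fu replicate 1, 9 were higher and 2 lower in HCT8/5-Fu.

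Of 26 S phase genes, 3 were lower and none higher in HCT8/5-Fu (13 higher and 4 lower without replicate 1), and 7 were higher and 7 lower in HCT8/DDP. Over all genes tested, 18.3% were lower and 20.4% higher in HCT8/5-Fu (27.7% and 28.5% without replicate 1). In HCT8/DDP, 25.5% of all genes were lower and 27.0% higher. GINS2, a subunit of the replicative helicase, was lower in both, at -0.91 ± 0.29 and -0.84 ± 0.10 (adjusted p = 0.037 and 2e-05, edgeR). Of 16 genes of G2 and mitosis, 2 were lower in HCT8/5-Fu, and 9 were lower and 1 higher in HCT8/DDP. Without HCT8/5-Fu replicate 1, 3 were lower and 2 higher in HCT8/5-Fu, and the median log2 fold change of this list was -0.07 in place of -0.35. CENPE, a kinetochore motor, was lower at -1.13 ± 0.21 and -1.02 ± 0.12 (adjusted p = 0.0036 and 2e-05, edgeR). In HCT8/DDP the median log2 fold change was 0.04 for the S phase genes and -0.31 for the genes of G2 and mitosis, beside -0.014 over all genes. The part of both lists in the histone values was not tested.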

How the data were processed

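Total RNA of 3 libraries each of HCT8/5-Fu, HCT8/DDP and HCT8 was depleted of rRNA and sequenced by the authors, whose methods also name RNase R treatment. Whether the mRNA counts come from treated libraries is not given in the sources used here. The submitters' processing notes name HISAT2 and DESeq2 without versions, and mm9. The authors deposited a count per gene and FPKM for 19976 genes. The deposited FPKM values equalled count divided by length and column total in 100% of cases (relative tolerance 1e-06). Circular RNA, miRNA and lncRNA tables were not used here.

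CPM were computed from the counts and library totals. Genes were tested with edgeR 4.0.16 (R 4.3.3; quasi-likelihood, TMM factors, filterByExpr) on all genes, in the 6 libraries of each comparison, with Benjamini-Hochberg adjustment over all genes tested and a threshold of 0.05. The SE is the size of the log2 fold change divided by the square root of F. The test was also run on simulated data, the results of which are not given here. Alternatives were DESeq2 1.42.0, limma 3.58.1 on log2(FPKM + 0.1) and log2(FPKM + 1), library totals, no filter, all 9 libraries in 1 fit, a replicate block and each library left out in turn. The gene lists, classes, loci, neighbours and sums without HCT8/5-Fu replicate 1 and the class and locus counts with all 9 libraries were added after seeing the data. Python 3.11.15 and scipy 1.17.1 gave the counting intervals.

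The members and lists were chosen with earlier results of these data known. The members named are the called ones with at least 10 CPM in the higher line and no overlap (the 10 largest changes per direction and comparison) and the 10 with the highest FPKM, with up to 4 genes of each list by p, of which some are given. Members and promoters were matched by symbol.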

Additional observations from a re-analysis of the deposited data

How the results depend on the processing

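Scaling by library totals moved the median log2 fold change of all genes from -0.004 to -0.11 in HCT8/5-Fu and from -0.014 to -0.13 in HCT8/DDP; relative to that shift the members stayed lower, with 10 lower and none higher in HCT8/5-Fu and 35 lower and none higher in HCT8/DDP. The count in HCT8/5-Fu was 13 with limma on either FPKM pseudocount, against 8, and lay between 7 and 19 when 1 library was left out, the highest without HCT8/5-Fu replicate 1. The count in HCT8/DDP was 8 with all 9 libraries in 1 fit, against 28, and lay between 22 and 36 with 1 library left out. HCT8/DDP against HCT8/5-Fu gave 0 members in each setting run but 22 without HCT8/5-Fu replicate 1, where HIST1H2AH (-0.44), HIST1H2AJ (-0.42) and HIST1H2BO (-0.40) turned negative and passed. Over the libraries left out in turn, these 3 reached at most 0.30, 0.32 and 0.27. Leaving out any other resistant library gave 0 of all genes between these lines, so those settings say nothing about the members in particular. The summed histone share kept its sign against HCT8 in all settings run. Between the resistant lines it changed sign with the library left out (-0.29 to 0.34).

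Same-numbered libraries did not deviate together (r between -0.16 and 0.080), so the numbers do not pair them. The replicate block gave 11 members in HCT8/5-Fu, 28 in HCT8/DDP and 0 between the resistant lines, while 35.4, 49.4 and 0.0% of all genes passed. Of 866 values of single members under these settings, 30 gained and 20 lost a call in the same direction and 3 turned and passed. In all, 75 had the other sign than the reported value, 54 of them between the resistant lines, and none belonged to a member called as reported. Depth limits HIST1H1D, HIST1H2BH, HIST1H3F and HIST1H2AL, whose folds rest on 3 counts or fewer in a resistant line.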
